A study of Saccharomyces cerevisiae with 8 samples.

Results

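The 8 libraries of the series come from 4 evolved strains of Saccharomyces cerevisiae, and the comparison described here sets the strains isolated after fewer generations of selection against those isolated after more. The early strains are DGY1726, called Trans by the study, and DGY1735, called ODIRA_A; the late strains are DGY1741, called ComQuad, and DGY1743, called ODIRA_B. A gene was kept as a member where all 4 libraries of one side lay beyond all 4 of the other in scaled counts, and 1630 of the 5507 nuclear protein-coding genes that averaged 100 counts or more met this rule (29.6%). Of these, 844 were higher in the early strains and 786 were higher in the late strains, which is 15.3% and 14.3% of the genes tested. Another 95 members fell under the count minimum, so that 1725 of 6572 nuclear protein-coding genes met the rule at any count.

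Every strain has the FY4/S288C background, carries a reporter cassette of a fluorescent protein and KanMX at the GAP1 locus, and was grown under glutamine limitation in a chemostat with 2 cultures per strain. Each strain is a single clone sorted from an evolved population and each carries its own amplification on chromosome XI around GAP1, the gene of the general amino acid permease. By the study's account the amplification runs from TOF2 to GAP1 within a translocation in DGY1726, which also has an amplified stretch on chromosome V from SAK1 to YER137C. It runs from ALY1 to SIR1 in DGY1735, from VPS1 to ESL2 in DGY1743 and from SET3 to TRK2 in DGY1741, with a further gain of GAP1 alone. The unevolved ancestor was not analysed here. Each side holds 2 strains, and the number of generations, the amplification and every other mutation of a clone cannot be told apart.

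In a chemostat the dilution rate sets the growth rate and a single nutrient, here glutamine as the nitrogen source, is kept scarce. Under scarcity budding yeast draws on a pair of large programs that usually move in opposite directions. The environmental stress response raises chaperones, catalase, trehalose metabolism and small hydrophilic proteins, largely through Msn2, Msn4 and Hsf1, while ribosomal proteins and ribosome biogenesis factors follow nutrient supply through the TOR and protein kinase A pathways. Scarce nitrogen also relieves nitrogen catabolite repression, in which the GATA factors Gln3 and Gat1 turn on permeases and enzymes that recover nitrogen from poorer sources.

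Levels are given as counts per 1000000 nuclear protein-coding reads (CPM) after TMM scaling, and they are not corrected for gene length, so they compare libraries and not genes. Nuclear protein-coding totals ran from 9116777 to 13195796 counts per library. Mitochondrially encoded genes took 13.2% and 19.2% of protein-coding counts in the 2 libraries of DGY1743 and 0.0534% to 0.0957% in the other 6, and they were left out of the scaling. A fold is the ratio of the geometric means of the 4 early and the 4 late libraries. The gap of a member is the log2 ratio of the lowest library of the high side to the highest library of the low side. Because the rule itself uses the contrast of the sides, no test of that contrast is given for the members.

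Taken strain by strain, the comparison has 2 values against 2. With the counts of each strain summed, edgeR's quasi-likelihood test called 0 of 5507 genes at an adjusted p under 0.05, with 1208 genes at an unadjusted p under 0.05 and a smallest adjusted p of 0.112, whereas DESeq2 on the same sums called 617. An exact two-sided permutation test of 2 strains against 2 cannot give a p below 0.333. With the cultures as the error, edgeR separated the means of the sides for 2560 genes, 46.5% of those tested, of which 1203 were higher and 1357 lower in the late strains. That number describes these 4 strains in 2 cultures each. Members of both directions spanned a wide range of change: the median fold was 1.42 among those higher early and 1.38 among those higher late, 122 and 73 of them differed by at least 2-fold, and 78 and 59 had a gap of at least 0.5.

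Fewer genes were called between the early strains than between the late strains. edgeR called 138 genes between DGY1726 and DGY1735, 2.51% of those tested, with 1.63% higher in DGY1726 and 0.872% lower, and 1245 between DGY1741 and DGY1743, 22.6%. Without replicate 2 of DGY1726 the first count was 70, and without replicate 1 or replicate 2 of DGY1741 the second was 653 or 785. The median absolute log2 difference between the strains of a side was 0.13 early and 0.22 late over all genes tested. Members were called between the late strains about as often as any gene, for 20.6% of those higher early and 21.8% of those higher late beside 22.6% of all genes tested. Of the 844 members higher early, 158 were lower in DGY1741 than in DGY1743 and 16 were higher, against 674 lower (12.2%) and 571 higher (10.4%) of all 5507 genes tested. Of the 786 members higher late, 136 were higher in DGY1741 and 35 were lower. With each library left out in turn, the 158 ran from 106 to 170 and the 16 from 2 to 23. The 136 ran from 41 to 135 and the 35 from 21 to 41, the lower end of the 136 being without replicate 1 of DGY1741. Over all genes tested, that run called 162 higher and 491 lower in DGY1741. The rule asks both late strains to lie beyond the early ones and so limits, but does not fix, how members differ between the late strains.

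Among the members higher in the early strains, the 10 with the largest gap include several genes induced by stress or by poor carbon supply. SIP18, which encodes a phospholipid-binding hydrophilin needed to survive desiccation, was measured at 859 and 1087 CPM in DGY1726, 822 and 1169 in DGY1735, 14.1 and 16.2 in DGY1741, and 319 and 214 in DGY1743. Both late strains were below every early library, and the libraries of DGY1741 stood far under those of DGY1743 (log2 difference -4.13 ± 0.24 (SE) for DGY1741 minus DGY1743, adjusted p = 9.99e-08, edgeR). The early level was 15.5-fold the late one. In RNA from whole cultures, a change in the share of cells in a state and a change in RNA per cell cannot be told apart. GRE1, a hydrophilin related to SIP18, was at 353 and 410.3 CPM in DGY1726, 276 and 466 in DGY1735, 12.4 and 8.42 in DGY1741, and 109 and 44.6 in DGY1743. It followed the same order, with DGY1741 lowest (log2 difference -2.89 ± 0.37 (SE) for DGY1741 minus DGY1743, adjusted p = 7.18e-05) and a fold of 13.8. YMR175W-A, a small uncharacterized gene on the same strand and chromosome as SIP18, was at 179.7 and 241 CPM in DGY1726, 181 and 258 in DGY1735, 3.62 and 4.397 in DGY1741, and 73.2 and 49.8 in DGY1743.

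NCA3, a member of the SUN family of cell wall proteins, had the largest gap of all members at 2.08 on the log2 scale. Its levels were 91.9 and 132 CPM in DGY1726, 46.6 and 39.97 in DGY1735, 6.01 and 9.47 in DGY1741, and 6.54 and 6.303 in DGY1743. The early strains also differed from each other here (log2 difference 1.38 for DGY1726 over DGY1735, adjusted p = 0.00117, edgeR), whereas the late strains overlapped. ANS1, a putative cell wall protein, was at 30.8 and 29.8 CPM in DGY1726, 24.98 and 14.9 in DGY1735, 1.06 and 1.12 in DGY1741, and 4.06 and 2.69 in DGY1743, a fold of 12.7. PCK1, which encodes phosphoenolpyruvate carboxykinase of gluconeogenesis, was at 152 and 193 CPM in DGY1726, 409.9 and 408 in DGY1735, 18.2 and 23.1 in DGY1741, and 45.4 and 32.1 in DGY1743. PCK1 lies on chromosome XI, and its copy number differs between these strains by the study's account, as set out with that chromosome.

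The other 4 genes of this set had folds between 4.47 and 6.08. HBT1, a protein of the mating projection, was at 300.4 and 387 CPM in DGY1726, 306 and 389.7 in DGY1735, 31.99 and 29.7 in DGY1741, and 118 and 90.4 in DGY1743. NQM1, a transaldolase, fell in the range of 247 to 336 CPM in the early and 30.5 to 107 CPM in the late libraries. PMA2, an isoform of the plasma membrane proton pump, was at 1347 to 1642 CPM in the early and 259 to 596 CPM in the late libraries. FMP48, a putative mitochondrial protein, was at 35.7 to 70.98 CPM in the early and 6.01 to 13.97 CPM in the late libraries, a fold of 5.34. edgeR called DGY1741 below DGY1743 in 8 of these 10 genes, NCA3 and FMP48 being the others (adjusted p = 0.482 and 0.0794).

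**Figure D1:**
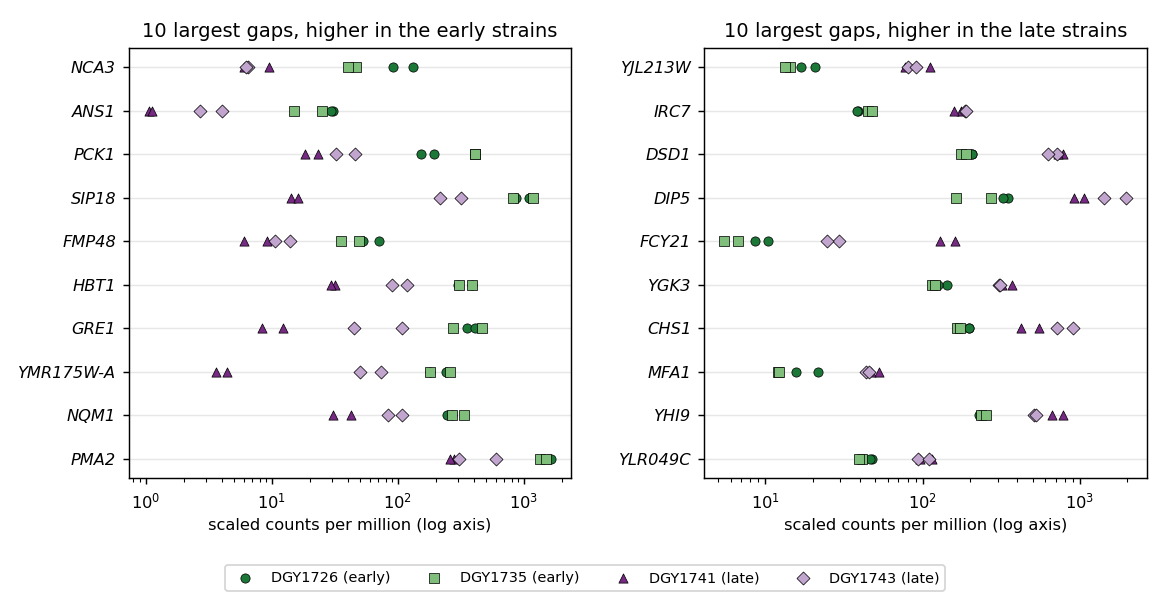
Scaled CPM (log axis) of the 10 members with the largest gap in each direction; each point is a library, 2 per strain, with the early strains in green and the late strains in purple. No green point overlaps a purple one in any row, as the rule requires, and SIP18 shows DGY1741 at 14.1 and 16.2 CPM far below DGY1743 at 319 and 214 CPM.

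Among the members higher in the late strains, the largest gap belonged to YJL213W, an uncharacterized gene of the amidohydrolase kind. It was measured at 16.7 and 20.7 CPM in DGY1726, 14.2 and 13.4 in DGY1735, 111 and 77.6 in DGY1741, and 81.1 and 91.2 in DGY1743, a fold of 5.58. IRC7, a cysteine desulfhydrase that splits sulfur compounds, was at 38.6 and 38.4 CPM in DGY1726, 44.6 and 47.3 in DGY1735, 174 and 157 in DGY1741, and 185 and 187 in DGY1743. DSD1, a D-serine dehydratase, was at 206 and 205 CPM in DGY1726, 174 and 189 in DGY1735, 782 and 722 in DGY1741, and 718 and 627 in DGY1743. In these 3 genes the late strains lay close together and none of their differences passed edgeR's test between DGY1741 and DGY1743 (adjusted p = 0.612, 0.299 and 0.381).

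DIP5, the permease for glutamate and aspartate, was at 349 and 323 CPM in DGY1726, 164 and 271 in DGY1735, 1065 and 914 in DGY1741, and 1972 and 1419 in DGY1743. DGY1743 stood above DGY1741 (log2 difference -0.78 ± 0.21 (SE) for DGY1741 minus DGY1743, adjusted p = 0.0178). FCY21, a putative purine-cytosine permease, had the opposite order within the late side at 8.57 and 10.3 CPM in DGY1726, 6.67 and 5.47 in DGY1735, 159 and 128 in DGY1741, and 29.2 and 24.5 in DGY1743 (log2 difference 2.42 ± 0.16 (SE) for DGY1741 minus DGY1743, adjusted p = 2.37e-07). CHS1, the chitin synthase that repairs the wall after daughter cells separate, was at 197 and 196 CPM in DGY1726, 165 and 173 in DGY1735, 551 and 419.8 in DGY1741, and 714 and 906 in DGY1743, with DGY1743 the higher (log2 difference -0.74 ± 0.15 (SE) for DGY1741 minus DGY1743, adjusted p = 0.00325). MFA1, which encodes the a-factor mating pheromone, was at 15.5 and 21.7 CPM in DGY1726, 11.98 and 12.3 in DGY1735, 52.7 and 47.1 in DGY1741, and 43.7 and 45.3 in DGY1743, a fold of 3.15.

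The remaining 3 of the 10 were YGK3, a kinase of the glycogen synthase kinase 3 family, YHI9 and YLR049C. YGK3 lay at 114 to 142 CPM in the early and 304 to 370.3 CPM in the late libraries. YHI9 lay at 229 to 252 CPM in the early and 506 to 777 CPM in the late libraries, and YLR049C at 39.1 to 47.3 CPM in the early and 93.5 to 115 CPM in the late libraries. Their folds were 2.61, 2.57 and 2.37. CHA1, the catabolic serine and threonine deaminase, came just after these 10 by gap and is named because of its values, at 9.49 and 8.54 CPM in DGY1726, 5.54 and 6.25 in DGY1735, 25.7 and 28.8 in DGY1741, and 27.6 and 17.98 in DGY1743.

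Functional groups were counted in 29 lists, each read against the 15.3% and 14.3% of all genes tested. The median late minus early log2 difference over all genes tested was -0.026, and a list's median stands beside it. Lists of stress defence, cytosolic ribosomal proteins, ribosome biogenesis and RNA polymerases I and III held more early-higher members than the background. Aminoacyl-tRNA synthetases and mitochondrial ribosomal proteins did not. Lists of the cell wall, mating, cell cycle and sterols held more late-higher ones.

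**Figure D2:**
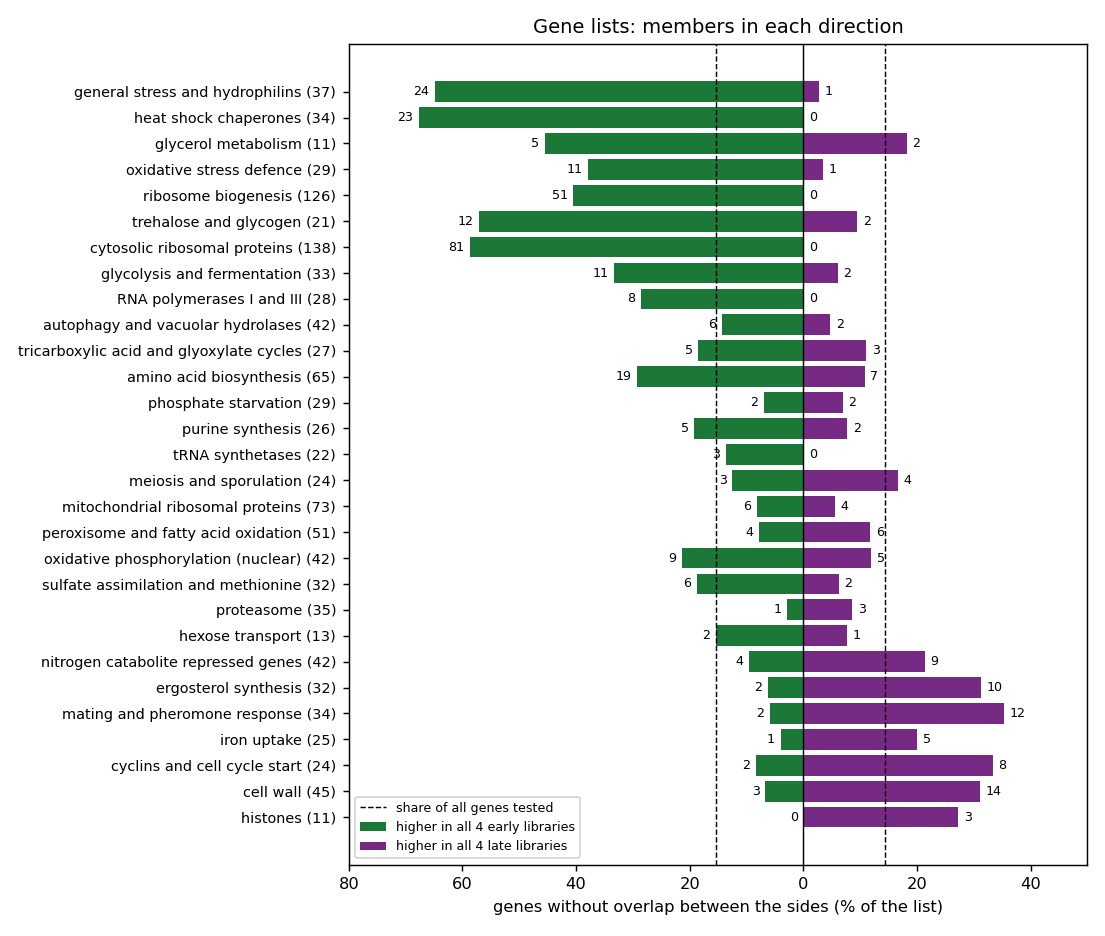
Share of each gene list (number of genes tested in brackets) that was higher in all 4 early libraries, to the left, or in all 4 late libraries, to the right, in percent, with the number of genes at each bar; dashed lines mark 15.3% and 14.3%, the shares over all 5507 genes tested. General stress genes (24 of 37) and cytosolic ribosomal proteins (81 of 138) reach far past the line on the early side.

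General stress genes and hydrophilins were mostly higher in the early strains. Of 37 tested, 24 were members higher early (64.9%) and 1 was higher late, and the list's median was -1.25 on the log2 scale. Folds of the 24 ran from 1.31 to 15.5 with a median of 4.29. HSP12, a membrane-stabilizing stress protein named because of its values, was at 2716 and 2814 CPM in DGY1726, 2622 and 3238 in DGY1735, 502 and 549.7 in DGY1741, and 1464 and 1036 in DGY1743. The exception, HOR7, a small hyperosmolarity-responsive protein, was at 681 and 689 CPM in DGY1726, 468 and 502 in DGY1735, 1361 and 1281 in DGY1741, and 935 and 1016 in DGY1743. DGY1741 carried most of the distance, with a median of -1.84 against the early libraries, beside -0.65 for DGY1743. edgeR placed DGY1741 below DGY1743 for 29 of the 37 genes and above it for 3, and for 26 to 30 with each library left out. Taken alone, DGY1741 lay below all 4 early libraries for 31 genes (83.8%) and DGY1743 for 27 (73.0%), where 28.5% and 25.5% of all genes tested did so. The corresponding shares above all 4 early libraries were 27.9% of all genes for DGY1741 and 22.2% for DGY1743.

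Heat shock chaperones were counted apart from these. Of 34 tested, 23 (67.6%) were higher early and 0 were higher late, with a median difference of -0.80. SSE2, a nucleotide exchange factor for Hsp70, was at 499.8 and 558 CPM in DGY1726, 496 and 567 in DGY1735, 138 and 115 in DGY1741, and 304 and 226 in DGY1743. SSA1, an Hsp70, was at 3891 to 4933 CPM in the early and 972 to 2582 CPM in the late libraries, but 57.9% of its 50-base windows occur elsewhere in the genome, SSA2 being its close paralog, so its reads cannot be told apart from its paralog's with certainty. HSP82, an Hsp90 with 6.39% of such windows, was at 2827 and 3224 CPM in DGY1726, 3146 and 3443 in DGY1735, 709.8 and 670.4 in DGY1741, and 1948 and 1892 in DGY1743. Its early libraries exceeded DGY1743 by less than they exceeded DGY1741 (log2 difference -1.48 ± 0.15 (SE) for DGY1741 minus DGY1743, adjusted p = 6.56e-06 between the late strains). edgeR called DGY1741 below DGY1743 in 21 of the 34 chaperone genes and above it in 0, and in 11 without replicate 1 of DGY1741.

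Oxidative stress defence held 11 early-higher members of 29 (37.9%) and 1 late-higher, GSH2, glutathione synthetase, at 136 to 147 CPM in the early and 151 to 178 CPM in the late libraries. CTT1, the cytosolic catalase, was at 840.2 and 932 CPM in DGY1726, 662 and 971 in DGY1735, 56.3 and 59.9 in DGY1741, and 333 and 218 in DGY1743. Its fold of 6.73 was the largest in the list. SOD2, the mitochondrial manganese superoxide dismutase, was at 99.02 to 150.0 CPM in the early and 40.03 to 62.2 CPM in the late libraries, and HYR1, a peroxidase and hydrogen peroxide sensor that lies on chromosome IX, was at 91.97 to 108 CPM in the early and 46.9 to 63.6 CPM in the late libraries. Taken alone, DGY1741 lay below every early library for 22 of the 29 genes (75.9%, beside 28.5% of all genes) and DGY1743 for 11 (37.9%, beside 25.5%).

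Reserve carbohydrate genes followed. In trehalose and glycogen metabolism 12 of 21 genes (57.1%) were higher early and 2 were higher late. TPS2, trehalose-6-phosphate phosphatase, was at 687 and 707 CPM in DGY1726, 626 and 664 in DGY1735, 293 and 306 in DGY1741, and 442 and 396 in DGY1743. TSL1, a regulatory subunit of the same complex, was at 859 to 1093 CPM in the early and 440.4 to 623 CPM in the late libraries, and GDB1, the glycogen debranching enzyme, was at 442 to 457 CPM in the early and 219 to 320.2 CPM in the late libraries. The pair higher late were PGM1, the minor phosphoglucomutase, and PIG1, a putative regulator of glycogen synthase, at 75.1 to 89.3 CPM in the early and 104 to 172 CPM in the late libraries and 32.7 to 40.8 CPM in the early and 48.97 to 55.4 CPM in the late libraries. Glycerol genes counted 5 early-higher of 11 and 2 late-higher. GPD1, the first enzyme of glycerol synthesis, was at 244 to 277 CPM in the early and 108 to 153 CPM in the late libraries; GUT2, of glycerol breakdown and on chromosome IX, and GCY1, a glycerol dehydrogenase, were also higher early, while the glycerol channel gene FPS1 and the osmostress kinase gene HOG1 were higher late by 1.29-fold and 1.36-fold.

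The sequence before the start codon was read for 10 short motifs, since members that move together may share them. A promoter here is the 300 bases before the start codon, and each motif was searched on both strands. AGGGG, the stress response element bound by Msn2 and Msn4, was in 17 of the 24 early-higher stress genes (70.8%), 7 of the 12 in trehalose and glycogen and 11 of the 23 chaperones, against 22.1% of all 6571 promoters of full length. TTCNNGAA, a heat shock factor repeat, was in 18 of the 23 early-higher chaperones (78.3%) and in 13.2% of all promoters. List genes that missed the rule were not counted apart for any motif, so such shares may belong to a list as a whole and not to its members. The windows below are from the 3 members of each list with the largest gap, and from HSP12, where a match exists. Each is 30 bases of the R64 reference in RefSeq's copy, read 5′ to 3′ along the gene's strand, with the match nearest the start codon in capitals; CCCCT is AGGGG on the other strand.
NQM1 (chrVII:581584-581613, minus strand): taggggcgaatgAGGGGagcatagtggatc
CTT1 (chrVII:654489-654518, plus strand): catttatcgtatCCCCTactgctacacgta
SOD2 (chrVIII:123714-123743, minus strand): ccgtagcagacaCCCCTgatgaagaagcta
GDB1 (chrXVI:901840-901869, plus strand): caacagcagcaaCCCCTtgaaatggccaat
TSL1 (chrXIII:70447-70476, plus strand): ggggtagaaccaAGGGGctagcacactcac
HSP12 (chrVI:107054-107083, plus strand): gttccggtcgtcCCCCTcttgatctgaaag
SSE2 (chrII:576215-576244, minus strand): atagtagacgtTTCTAGAAcgtccccttac
SSA1 (chrI:141554-141583, minus strand): attgatgtatcTTCGAGAAgggattgagtt
HSP82 (chrXVI:98674-98703, minus strand): ctgtattagagTTCAAGAAatcatacctga

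SIP18, GRE1, HYR1 and TPS2 held no AGGGG within 300 bases, which says only that these letters are not in that window. The match in CTT1 begins 133 bases before the start codon and that in HSP82 begins 67 bases before it.

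Cytosolic ribosomal protein genes were also higher in the early strains, by smaller folds. Of 138 tested, 81 were members higher early (58.7%) and 0 were higher late, with a median difference of -0.35. Folds of the 81 ran from 1.16 to 1.74. RPL36B was at 171 and 171 CPM in DGY1726, 158 and 141 in DGY1735, 104 and 104 in DGY1741, and 108 and 96.6 in DGY1743. RPL17A, at 122 to 166 CPM in the early and 77.9 to 93.5 CPM in the late libraries, and RPS15, at 119 to 168 CPM in the early and 82.01 to 92.3 CPM in the late libraries, had the next largest gaps. In contrast with the stress genes, the late strains lay close together: the list's median was -0.31 in DGY1741 and -0.41 in DGY1743, and edgeR called 8 of the 138 genes between them, 6 of these higher in DGY1741. Many of these genes are near-identical pairs, for which the split of reads between the copies is uncertain.

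Many ribosome biogenesis genes were also higher in the early strains. Of 126 tested, 51 (40.5%) were higher early and 0 were higher late, with a median of -0.42. NSR1, a nucleolin-like protein of pre-rRNA processing, was at 1198 and 925 CPM in DGY1726, 1552 and 975 in DGY1735, 645 and 510.1 in DGY1741, and 514 and 529 in DGY1743. The early libraries of NSR1 spread widely within each strain, and the lowest of them was still above the highest late library. DBP2, an RNA helicase, was at 1578 to 2298 CPM in the early and 971 to 1114 CPM in the late libraries, and MAK5, a helicase of the large subunit, was at 118 to 191 CPM in the early and 78.5 to 87.8 CPM in the late libraries. Taken alone, DGY1741 was below every early library for 58 of the 126 genes (46.0%, beside 28.5% of all genes) and DGY1743 for 91 (72.2%, beside 25.5%). RNA polymerases I and III held 8 early-higher members of 28 (28.6%) and 0 late-higher, led by RPO31, RPA14 and RPC31; RPO31, the largest subunit of polymerase III, was at 310.3 to 335 CPM in the early and 245 to 276 CPM in the late libraries. Aminoacyl-tRNA synthetases were near the background, with 3 of 22 (13.6%), namely KRS1, FRS2 and DED81, and 0 late-higher.

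GATGAG, known as the PAC element of ribosome biogenesis promoters, was in 47 of the 51 early-higher biogenesis members (92.2%), and AAATTTTT, its usual companion RRPE, in 40 of them (78.4%). Over all promoters the shares were 18.5% and 14.5%. Biogenesis genes that missed the rule were not counted apart, so these shares do not tell the members from the rest of their list. Among the 81 ribosomal protein members GATGAG was in 12.3% and AAATTTTT in 7.41%. The windows of the 3 biogenesis members with the largest gap are shown in the same way, with CTCATC being GATGAG on the other strand.
NSR1 (chrVII:807826-807855, minus strand): ttgcaagggcagCTCATCgcaagaacgaaa
DBP2 (chrXIV:413472-413501, plus strand): tttacgccgatgCTCATCgcagaaaatttt
MAK5 (chrII:528186-528215, plus strand): aacttttccagcGATGAGcttataagaatt

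Glycolysis and fermentation genes had 11 early-higher members of 33 (33.3%) and 2 late-higher. TDH1 and TDH3, isoenzymes of glyceraldehyde-3-phosphate dehydrogenase, were at 933 to 1561 CPM in the early and 389.8 to 557 CPM in the late libraries and 4408 to 5292 CPM in the early and 1952 to 3253 CPM in the late libraries; 15.7% and 24.4% of their 50-base windows occur elsewhere. PDC6, a minor pyruvate decarboxylase, was at 1169.6 and 1497 CPM in DGY1726, 1172 and 1518 in DGY1735, 135 and 108 in DGY1741, and 796 and 707 in DGY1743, where DGY1741 stood far below the rest (log2 difference -2.63 ± 0.18 (SE) for DGY1741 minus DGY1743, adjusted p = 2.99e-07). HXK2, the hexokinase that also takes part in glucose repression, went the other way at 391 and 373 CPM in DGY1726, 415 and 328 in DGY1735, 821 and 701 in DGY1741, and 595 and 571 in DGY1743, as did GPM3 by 1.39-fold. DGY1743 was below all early libraries for 22 of the 33 genes (66.7%, beside 25.5% of all genes), and DGY1741 for 12 (36.4%), which is nearer to its 28.5% of all genes. HXT5, a hexose transporter of slow growth, led a list of 13 transport genes with 2 early-higher and 1 late-higher member, at 1493 to 1783 CPM in the early and 299 to 898 CPM in the late libraries.

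Amino acid biosynthesis counted 19 early-higher members of 65 (29.2%) and 7 late-higher (10.8%). LEU2, of leucine synthesis, was at 186 to 236 CPM in the early and 77.1 to 131 CPM in the late libraries. SER3, of serine synthesis, was at 237 to 436 CPM in the early and 119 to 169.9 CPM in the late libraries, and ILV5, of branched-chain synthesis, was at 1606 to 1804 CPM in the early and 958 to 1199.9 CPM in the late libraries. The late-higher ones were led by HIS2, ARG4 and ARO8, with folds of 1.57, 1.53 and 1.69. TGACTC, the Gcn4 site, was in 76 of 844 early-higher and 58 of 786 late-higher promoters, beside 8.10% of all.

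On the late side, nitrogen catabolite repressed genes held 9 late-higher members of 42 (21.4%) and 4 early-higher (9.52%), with a list median of 0.11. PUT1, the first enzyme of proline breakdown, was at 481 and 589 CPM in DGY1726, 375 and 436 in DGY1735, 1091 and 1079 in DGY1741, and 1452 and 1471 in DGY1743. BAT2, the cytosolic branched-chain aminotransferase, was at 170.4 and 161 CPM in DGY1726, 153 and 181 in DGY1735, 455 and 319.8 in DGY1741, and 522 and 431 in DGY1743. GAP1 was at 11354 and 11810.0 CPM in DGY1726, 10007 and 13794 in DGY1735, 26153 and 24799 in DGY1741, and 20719 and 19458 in DGY1743, a fold of 1.94 with no call between the late strains (adjusted p = 0.264). All 4 strains carry extra copies of GAP1, and by the study's account their number differs between strains. It describes a tandem duplication in DGY1726, triplications in DGY1735 and DGY1743, and a triplication with a further gain of GAP1 in DGY1741. Copy number was not measured in these files, and its part in the difference was not tested. The early-higher ones were UGA2 and GDH3, which act in glutamate metabolism, GLN3, a GATA activator of this group, and MEP1, an ammonium permease. MEP1 was at 373 to 453 CPM in the early and 197 to 368 CPM in the late libraries. The other ammonium permeases, MEP2 and MEP3, were higher late. DAL80, the GATA repressor of this group, missed the rule, at 974 and 918 CPM in DGY1726, 788 and 1015 in DGY1735, 1091 and 992 in DGY1741, and 1605 and 1197 in DGY1743. DGY1743 was above every early library for 20 of the 42 genes (47.6%, beside 22.2% of all genes). DGY1741 was above for 13 (31.0%) and below for 17 (40.5%), beside 27.9% and 28.5% of all genes.

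GATAAG, the site of the GATA factors, was in 23.5% of late-higher promoters, 11.6% of early-higher ones and 14.6% of all. It was in 7 of the 9 late-higher members of the nitrogen list, whose other genes were not counted apart. The matches nearest the start codon in PUT1 and GAP1 are shown, CTTATC being GATAAG on the other strand; BAT2 held none in its window.
PUT1 (chrXII:424969-424998, plus strand): ggcgctatttccCTTATCatctcattattg
GAP1 (chrXI:514809-514838, plus strand): taaattaaacatGATAAGcgcatagttggg

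Cell wall genes held 14 late-higher members of 45 (31.1%) and 3 early-higher (6.67%), with a median difference of 0.61. The early strains were also apart in this list, DGY1726 lying above DGY1735 by a median of 0.55 on the log2 scale. The list's median was 0.81 in DGY1741 and 0.40 in DGY1743. DGY1741 was above every early library for 28 genes (62.2%, beside 27.9% of all genes) and below for 3. DGY1743 was above for 19 (42.2%, beside 22.2%) and below for 5. edgeR placed DGY1741 over DGY1743 in 19 of the 45 genes and under it in 6. Besides CHS1, DSE1, a daughter-cell protein of wall breakdown, was at 369 and 326 CPM in DGY1726, 262 and 215 in DGY1735, 1020.2 and 954 in DGY1741, and 659 and 676 in DGY1743. CRH1, which joins chitin to glucan, was at 87.9 and 105 CPM in DGY1726, 63.5 and 58.7 in DGY1735, 211 and 209 in DGY1741, and 185 and 199 in DGY1743. CTS1, the chitinase that acts when mother and daughter separate, is named because of its values and missed the rule at 172 and 206 CPM in DGY1726, 99.4 and 93.8 in DGY1735, 272 and 268 in DGY1741, and 198 and 214 in DGY1743. Its replicates in DGY1726 lay close to those of DGY1743, and edgeR called the early strains different from each other (log2 difference 0.97 for DGY1726 over DGY1735, adjusted p = 0.000472). Early-higher were NCA3, CWP2, a mannoprotein, at 190.1 to 365 CPM in the early and 99.4 to 155 CPM in the late libraries, and FLO10, a flocculin on chromosome XI.

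Mating and pheromone genes held 12 late-higher members of 34 (35.3%) and 2 early-higher. Behind MFA1, the largest gaps were in STE2, the receptor for alpha factor, at 162 and 125 CPM in DGY1726, 109 and 109 in DGY1735, 297 and 280.3 in DGY1741, and 248 and 239.7 in DGY1743, and in HO, the mating-type switching endonuclease. HO was at 9.15 and 10.4 CPM in DGY1726, 83.8 and 89.7 in DGY1735, 455 and 431 in DGY1741, and 126 and 123 in DGY1743. Each strain sat at its own level of HO: the early strains differed (log2 difference -3.15 ± 0.14 (SE) for DGY1726 minus DGY1735, adjusted p = 2.19e-08) and so did the late ones (log2 difference 1.83 ± 0.11 (SE) for DGY1741 minus DGY1743, adjusted p = 1.57e-07), so the gap between the sides is narrow beside the spread among strains. STE3, the receptor for a-factor that haploid a cells keep silent, was low throughout, at 14.8 to 22.4 CPM in the early and 9.01 to 14.6 CPM in the late libraries, and was higher early by a gap of 0.02. STE12 was the other early-higher member. SWI5, GPA1, STE4, STE6, STE7, KAR4 and FAR1 were among the other late-higher members.

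Cell cycle genes split by strain. Of 24 cyclins and related genes, 8 (33.3%) were higher late and 2, the ribonucleotide reductase genes RNR2 and RNR3, were higher early. CLB2, a mitotic cyclin, was at 93.1 and 85.4 CPM in DGY1726, 69.4 and 72.8 in DGY1735, 259 and 201 in DGY1741, and 122 and 129.9 in DGY1743. CLB1, its partner, was at 74.8 to 98.6 CPM in the early and 134 to 226 CPM in the late libraries, and CDC5, the polo kinase of mitosis, was at 105 to 128 CPM in the early and 180.3 to 253 CPM in the late libraries. DGY1741 was above every early library in 20 of the 24 genes (83.3%, beside 27.9% of all genes) and DGY1743 in 8 (33.3%, beside 22.2%), and edgeR placed DGY1741 over DGY1743 in 18, or in 9 without replicate 1 of DGY1741. RNR1, named because of its values, missed the rule at 219 and 232 CPM in DGY1726, 194 and 177 in DGY1735, 501 and 477 in DGY1741, and 214 and 233 in DGY1743, with DGY1743 close to the early libraries of DGY1726. Histone genes showed the same in sharper form. All 11 were higher in DGY1741 than in every early library and all 11 were called above DGY1743, with 8 to 11 called when each library was left out, whereas DGY1743 exceeded the early libraries in 3 (27.3%, beside 22.2% of all genes), which are the members CSE4, HHT1 and HHT2. HHT1, a histone H3 gene, was at 1130.5 and 1050.0 CPM in DGY1726, 1034 and 985 in DGY1735, 3648 and 3115 in DGY1741, and 1266 and 1428 in DGY1743. The list's median was 1.498 in DGY1741 and 0.062 in DGY1743. HHT1 and HHT2 encode the same protein, and 12.2% of the 50-base windows of each occur elsewhere.

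**Figure D3:**
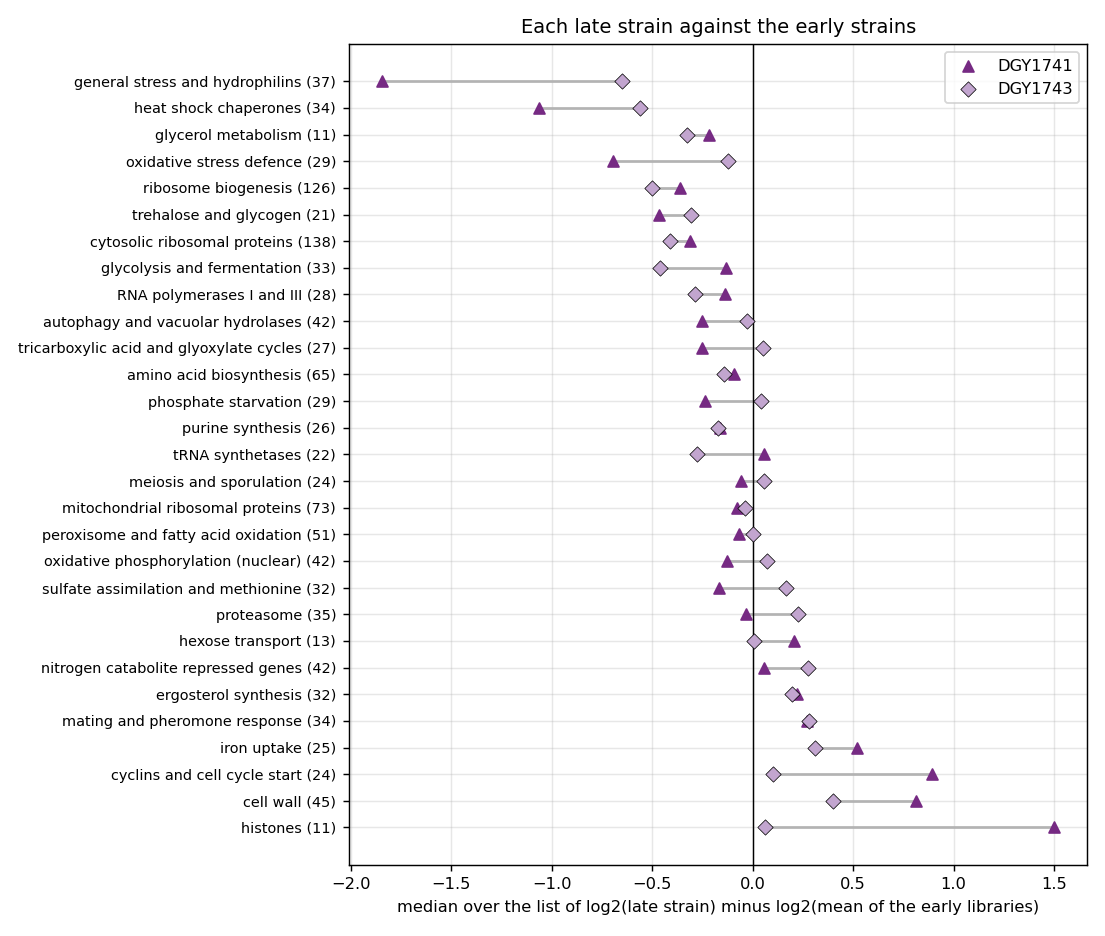
Median log2 difference of each late strain from the mean of the 4 early libraries, for each gene list (genes tested in brackets); triangles are DGY1741 and diamonds are DGY1743, and the early libraries are shared by both. General stress genes sit at -1.84 and -0.65, histones at 1.498 and 0.062, and ribosomal proteins at -0.31 and -0.41.

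Ergosterol synthesis counted 10 late-higher members of 32 (31.2%) and 2 early-higher. ERG28, a scaffold of sterol demethylation, was at 35.02 and 36.6 CPM in DGY1726, 38.3 and 31.7 in DGY1735, 76.97 and 60.7 in DGY1741, and 68.6 and 64.99 in DGY1743. ERG26 and ERG27, enzymes of the same step, were at 124 to 128 CPM in the early and 200.2 to 243 CPM in the late libraries and 128 to 138 CPM in the early and 209.7 to 253 CPM in the late libraries. ROX1, a repressor of hypoxic genes, and CYB5, cytochrome b5, were the early-higher ones, at 105 to 169 CPM in the early and 48.6 to 87.9 CPM in the late libraries and 44.7 to 50.98 CPM in the early and 30.7 to 38.9 CPM in the late libraries. Neither late strain stood apart here: edgeR called 3 of the 32 genes between them. Iron uptake had 5 late-higher members of 25 and 1 early-higher, the regulator gene AFT2. SIT1, a siderophore transporter, was at 97.8 and 64.03 CPM in DGY1726, 90.5 and 79.2 in DGY1735, 492 and 290.4 in DGY1741, and 153 and 212 in DGY1743, with DGY1741 the higher late strain (log2 difference 1.10 ± 0.24 (SE) for DGY1741 minus DGY1743, adjusted p = 0.00456). FET4 and FTH1, further iron transport genes, were higher late by 1.92-fold and 1.54-fold.

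The other lists had member shares of at most 21.4% in either direction. Nuclear genes of oxidative phosphorylation had 9 early-higher (21.4%) and 5 late-higher (11.9%) members of 42. The early share equals the nitrogen list's late share. DGY1741 was below every early library for 20 genes (47.6%, beside 28.5% of all genes) and above for 5. DGY1743 was above for 15 (35.7%, beside 22.2%) and below for 10. edgeR called DGY1741 below DGY1743 in 9 of the 42 genes and above it in 0. NDE2, an external NADH dehydrogenase, was at 117 and 126 CPM in DGY1726, 137 and 160.3 in DGY1735, 29.8 and 22.4 in DGY1741, and 80.9 and 69.95 in DGY1743. COX26 and ATP17, small subunits of oxidative phosphorylation complexes, led the late-higher ones. The tricarboxylic acid and glyoxylate list, apart from PCK1, was led by MDH2, the cytosolic malate dehydrogenase, at 82.98 to 105 CPM in the early and 41.3 to 69.6 CPM in the late libraries; it had 5 early-higher and 3 late-higher members of 27. Proteasome genes had 1 early-higher and 3 late-higher of 35. RPN4, the proteasome's transcription factor, was the early-higher one at 381 to 460.4 CPM in the early and 235 to 366 CPM in the late libraries, while DGY1743 alone was above every early library for 20 of the 35 (57.1%, beside 22.2% of all genes). Mitochondrial ribosomal proteins had 6 and 4 of 73, which is 8.22% and 5.48%.

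Peroxisome and fatty acid oxidation genes had 4 early-higher and 6 late-higher of 51. POT1, the thiolase of fatty acid oxidation, on chromosome IX, was at 40.7 and 42.6 CPM in DGY1726, 61.5 and 70.3 in DGY1735, 2.83 and 4.32 in DGY1741, and 29.4 and 26.7 in DGY1743, where DGY1741 was lowest (log2 difference -2.95 ± 0.20 (SE) for DGY1741 minus DGY1743, adjusted p = 2.56e-07). Autophagy and vacuolar hydrolases had 6 and 2 of 42, with ATG36 the largest early gap at 33.1 to 38.5 CPM in the early and 18.6 to 24.5 CPM in the late libraries and ATG5 the largest late one at 85.2 to 102 CPM in the early and 141 to 181 CPM in the late libraries. Sulfate assimilation had 6 and 2 of 32. DGY1741 was below every early library for 14 of these genes (43.8%, beside 28.5% of all genes) and above for 4. DGY1743 was above for 13 (40.6%, beside 22.2%) and below for 6. MHT1, which salvages methionine, was higher late at 45.6 to 50.7 CPM in the early and 56.6 to 119.7 CPM in the late libraries. Purine synthesis had 5 and 2 of 26, where IMD2, of guanine nucleotide synthesis, was at 51.99 and 36.9 CPM in DGY1726, 157 and 93.7 in DGY1735, 341 and 361 in DGY1741, and 263 and 260.3 in DGY1743, but 33.7% of its 50-base windows occur in other genes. Phosphate genes had 2 and 2 of 29, PHO3 at 32.8 to 46.00 CPM in the early and 15.3 to 22.4 CPM in the late libraries and PHO8 at 374 to 422 CPM in the early and 564 to 690.0 CPM in the late libraries having the largest gaps. Meiosis genes had 3 and 4 of 24; NDJ1, a telomere protein of meiosis, was at 2.94 and 2.91 CPM in DGY1726, 1.696 and 1.25 in DGY1735, 4.595 and 3.801 in DGY1741, and 66.5 and 67.6 in DGY1743, with the libraries of DGY1743 far above the rest and a fold of 8.08.

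Members were spread over all 16 nuclear chromosomes with 1 marked exception. On chromosome IX, 58 of 198 genes tested (29.3%) were higher early and 9 (4.55%) were higher late, while the other chromosomes held 11.9% to 17.1% early-higher and 10.6% to 20.9% late-higher. The median deviation of chromosome IX genes from each gene's own mean was between 0.08 and 0.10 on the log2 scale in the early libraries, 0.048 and 0.0013 in DGY1741, and -0.20 and -0.25 in DGY1743. DGY1743 alone was below every early library for 117 of the 198 genes (59.1%), beside 25.5% of all genes. DGY1741 was below for 70 (35.4%), beside 28.5% of all genes and between 23.7% and 41.9% on the other chromosomes. Leaving out chromosome IX, 786 of 5309 genes were higher early (14.8%) and 777 higher late (14.6%). BCY1, HYR1, RNR3, GUT2, POT1, SGA1, MET30 and DPH1 are the early-higher genes named here that lie on this chromosome. Copy number of chromosome IX was not measured in these files.

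Chromosome XI, which carries the amplifications, held 40 early-higher and 39 late-higher members of 315. These are 12.7% and 12.4%, beside 15.3% and 14.3% of all genes tested. Between VPS1 and GEX2 (chrXI:440608-663289, R64), the stretch that spans most of the amplified genes, 7 and 7 of 105 genes were members, 6.67% in each direction; the median was -1.07 in DGY1741 and 0.25 in DGY1743, so the late strains lay on opposite sides of the early ones. The study describes a core from SET3 to TRK2 as amplified in every strain, although it places the end of the tandem duplication of DGY1726 at GAP1 and a breakpoint of DGY1741 inside SET3. In the stretch from SET3 to TRK2, GAP1, SPC34, SHB17 and DID2 were higher late and 0 of 21 were higher early. The late share was 19.0%, near the 14.3% of all genes tested, and 15.3% of all genes were higher early. Past ESL2, towards the chromosome end, 6 of 9 genes (66.7%) were higher early, namely PCK1, BAS1, SKG1, UBP11, SIR1 and FLO10. BAS1, an activator of purine and histidine genes, was at 409 and 345 CPM in DGY1726, 599 and 489 in DGY1735, 191 and 171 in DGY1741, and 175 and 171 in DGY1743. By the limits the study gives, the stretch from ESL2 to SIR1 is amplified in DGY1735 and not in DGY1741 or DGY1743. Its copy number in DGY1726, whose duplication lies within a translocation, was not established here. The study also places a breakpoint of DGY1735 inside SIR1 with likely disruption of the neighbouring SKG1, so the values of these genes in that strain may not be those of whole transcripts. On chromosome V, YER137C and GLC7 were higher early, which is 2 of the 8 genes tested from SAK1 to YER137C (25.0%, beside 15.3% of all genes). By the study's account this stretch is amplified in DGY1726 alone. The study also places breakpoints of that strain inside YER137C and SAK1 with disrupted RNA. The values of YER137C and SAK1 in DGY1726 may therefore not be those of whole transcripts.

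**Figure D4:**
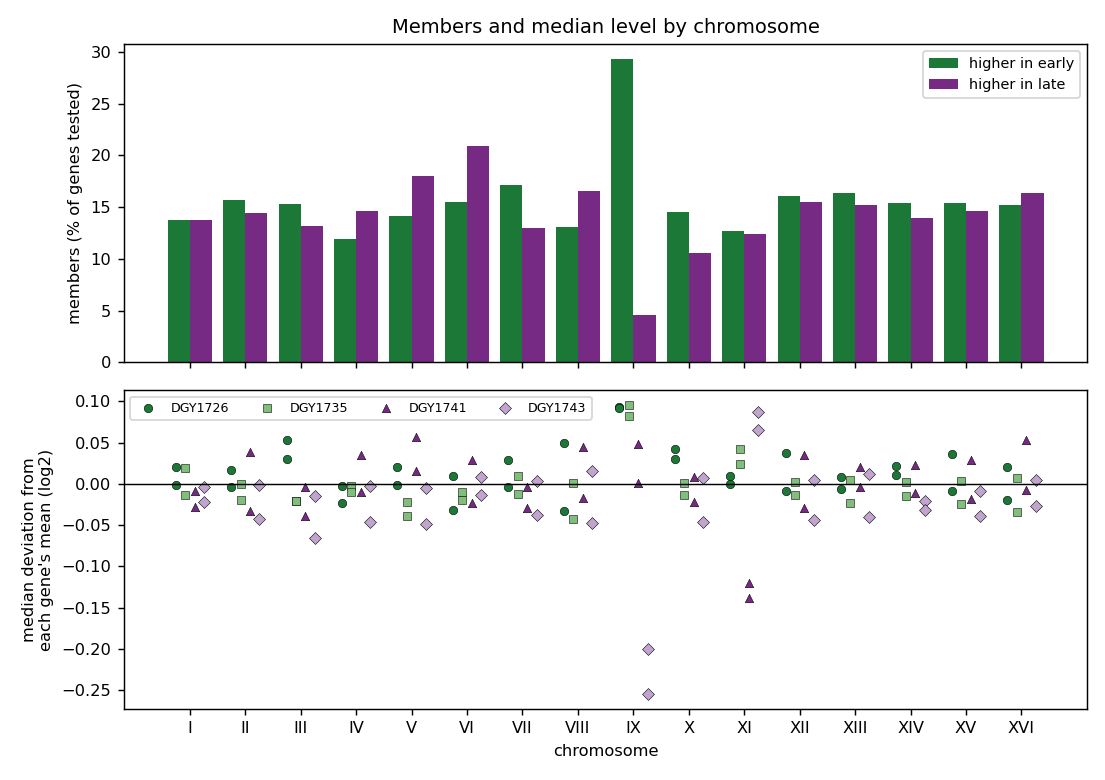
Upper panel, percent of the genes tested on each chromosome that were higher in all early (green) or all late (purple) libraries; lower panel, median over the genes of a chromosome of each library's log2 deviation from the gene's mean, 2 points per strain. Chromosome IX has 29.3% early-higher members and lies at -0.20 and -0.25 in DGY1743, and chromosome XI lies lowest in DGY1741.

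Across all members the motif shares differed between the directions. Early-higher promoters held AGGGG in 30.2%, GATGAG in 26.1% and AAATTTTT in 22.5%, beside 17.2%, 12.1% and 8.52% of late-higher promoters. The heat shock factor repeat, the TATA box TATAAA and the Gcn4 site had similar shares in both directions. CCAATNA, the Hap complex site, was in 137 of 844 early-higher and 94 of 786 late-higher promoters, with 15.3% of all; CACGTG, the E-box, was in 22 and 23 of the members, with 3.50% of all; and GGTGGCAAA, the Rpn4 site, was in 7 and 5 of the members, with 1.19% of all. A match to a motif is a description of the sequence and not of binding.

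**Figure D5:**
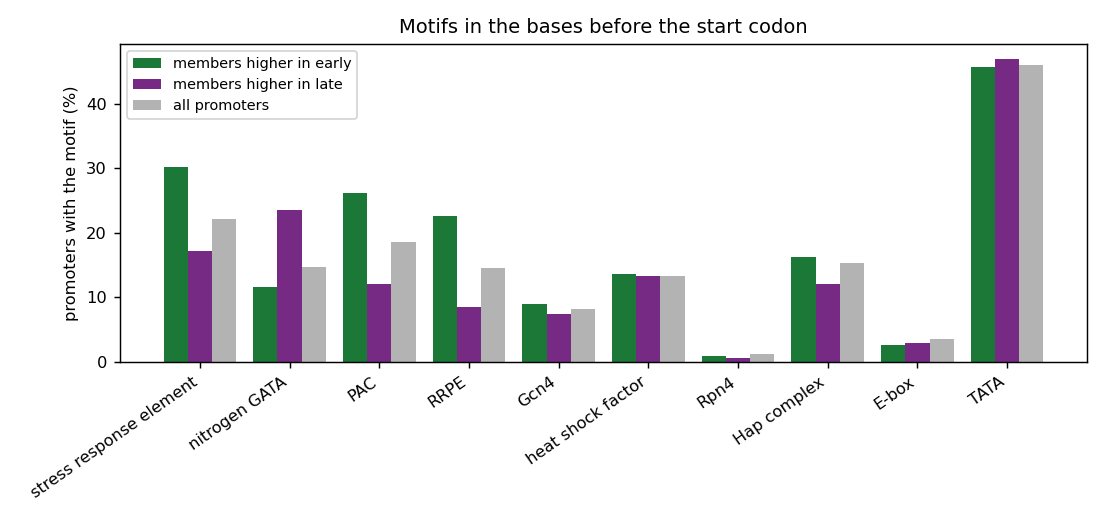
Percent of promoters (300 bases before the start codon) that hold each of 10 motifs on either strand, for members higher early, members higher late and all 6571 promoters. The stress response element (30.2% against 17.2%) and PAC (26.1% against 12.1%) are more frequent on the early side and the nitrogen GATA site (23.5% against 11.6%) on the late side.

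At the edge of the rule the sides are nearly in contact. The members just inside it were DPH1, at 67.9 to 100.0 CPM in the early and 44.5 to 67.9 CPM in the late libraries, and UBA1, the ubiquitin-activating enzyme, at 625 to 721 CPM in the early and 540.4 to 625 CPM in the late libraries, on the early side, and NPR3 and RTR1 on the late side, at 186 to 218 CPM in the early and 218 to 282 CPM in the late libraries and 48.6 to 53.4 CPM in the early and 53.4 to 57.03 CPM in the late libraries. Just outside it lay MRPS18 and SAM37, which were nearest to being higher early, and AGE1 and JHD1, which were nearest to being higher late. MRPS18 was at 98.6 to 121 CPM in the early and 87.3 to 98.6 CPM in the late libraries, and AGE1 was at 71.9 to 76.7 CPM in the early and 76.7 to 91.9 CPM in the late libraries.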

How the data were processed

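RNA of 4 strains, 2 chemostat cultures each, was sequenced and counted per annotated feature. The deposited values are raw counts: per the labels and the study's methods the authors trimmed reads with cutadapt, removed known snRNA, rRNA and tRNA reads, aligned with STAR to R64 and counted same-strand overlaps with bedtools, so a read over several features counts in each; the handling of multi-mapping reads is not given in the sources used here. The labels call the RNA polyA, whereas the methods describe no poly-A selection. Which strains are early or late comes from the study's methods.

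Counts of protein-coding gene rows outside the mitochondrial genome were scaled by TMM in edgeR 4.0.16 (R 4.3.3), and genes averaging under 100 counts were set aside. Genes without overlap were counted from these scaled CPM; 0.01 was added before taking log2. Contrasts used edgeR's quasi-likelihood test with Benjamini-Hochberg adjustment over 5507 genes at 0.05, in a fit of 4 strain means and in a fit of 4 strain sums. DESeq2 1.42.0, other scalings and filters, stricter thresholds, a replicate term and each library left out were alternatives. The scripts were tested on simulated data. The 17 chromosome lengths in the files equal those of the RefSeq copy of R64, from which promoters were read; 1 of 6572 was shorter than 300 bases.

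The members, the 29 gene lists and the motifs were chosen with earlier results of these data known. A further motif is not reported here. Genes named are the 10 members with the largest gap in each direction, the 3 with the largest gap per list and direction, those next to the edge of the rule, GAP1 and DAL80; others are named as chosen by their values, or only as members of a list or stretch. Of the listed symbols, REA1, FLO11, ZIP3, GPP1 and GPP2 were not matched. Cultures of a strain may differ only technically, so p-values measure the spread between them.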

Additional observations from a re-analysis of the deposited data

Results flagged for a closer look

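Single libraries stood far from the other 3 of their side in 17 of 338 checks, made on the 4 libraries of each side for each named gene. A chance rate of about 1 in 20 holds for 4 values of a single kind. Each side holds 2 strains with 2 cultures each, so the 17 cannot be set against that rate. DGY1726 replicate 2 was highest for CYT1 at 80.4 CPM, GPD1 at 277 CPM and BCY1 at 105 CPM, and lowest for MRPL27 at 35.7 CPM. DGY1726 replicate 1 was highest for AGE1 at 76.7 CPM. DGY1735 replicate 1 was highest for CYB5 at 51.0 CPM and lowest for IDP1 at 202 CPM, and DGY1735 replicate 2 was highest for MEP1 at 453 CPM. DGY1741 replicate 1 was highest for NSR1 at 645 CPM and HIS2 at 190 CPM, and lowest for RPA14 at 6.98 CPM. DGY1741 replicate 2 was highest for ZIP2 at 25.4 CPM and lowest for UBA1 at 540 CPM. DGY1743 replicate 1 was highest for MDH2 at 69.6 CPM. DGY1743 replicate 2 was highest for MET13 at 111 CPM, and lowest for DED81 at 130 CPM and SAM37 at 53.4 CPM.

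Rows of transposable elements were in no comparison; 4 of the 78 that averaged 100 counts or more (5.13%) showed no overlap between the sides, all higher in the late strains, which is below the 14.3% of the genes tested. Near-identical copies of these elements share reads.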

How the results depend on the processing

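The count of 1630 genes without overlap stayed within 1.5 times under RLE scaling, other filters, coding-sequence rows, mitochondrial genes in the library size and, chosen after seeing the data, without chromosomes IX and XI; with each library left out it was 1829 to 2019, since fewer libraries relax the rule. It was 137 with a gap of at least 0.5, 3106 for the early strains against DGY1741 alone and 2625 against DGY1743 alone. On strain sums edgeR called 0 genes under every alternative run with it and DESeq2 called 617. The contrast of the sides over 8 libraries gave 1955 to 2462 calls with each library left out, 1691 at an adjusted p under 0.01 and 1415 with the 2 sides as the only factor. DGY1726 against DGY1735 gave 70 to 186 calls with each library left out, 73 at 0.01 and 223 with DESeq2. DGY1741 against DGY1743 gave 653 to 1304 and 695 at 0.01. Against the early mean, DGY1741 gave 2336 calls (1315 to 2521, lowest without its replicate 1) and DGY1743 gave 1738 (1017 to 1737, lowest without its replicate 2; 977 at 0.01). The causes of these changes were not tested.

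Same-numbered cultures were not treated as pairs. Their deviations correlated at -0.22 to 0.40 over 6 pairs of strains, without a common sign. The pairs with DGY1726 stood at 0.30 for DGY1735, 0.40 for DGY1741 and 0.20 for DGY1743. A replicate block gave 2678 calls over 8 libraries, beside 2560 without it, and 1386 between the late strains, beside 1245. Whether some strains share a replicate effect was not tested. RLE scaling shifted all genes by 0.0022 on the log2 scale and closed the gaps of STE12 (-0.0104), DPH1 (-0.00358), UBA1 (-0.0195) and RTR1 (-0.00463). Leaving out a library reversed 0 of 1352 differences of named genes and moved 147 by more than the spread between replicates. Most named genes are members, whose lack of overlap leaves almost no room for a reversal, so the 0 does not test them. Depth limits genes under 100 counts, where 95 members lie.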

Other observations

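Genes of the cyclic AMP and protein kinase A pathway, a list added after these values were seen, were higher in the early strains for 9 of 20 genes and higher in the late strains for 0, beside 15.3% and 14.3% of all genes tested. Protein kinase A signals nutrient supply, and its activity opposes the general stress response. BCY1, the subunit that inhibits the kinase and that lies on chromosome IX, was at 78.9 and 105 CPM in DGY1726, 76.5 and 77.8 in DGY1735, 39.3 and 44.6 in DGY1741, and 41.2 and 44.3 in DGY1743. RAS1, a GTPase that activates adenylate cyclase, was at 109 to 176 CPM in the early and 55.5 to 74.2 CPM in the late libraries, and IRA1, which switches Ras off, was at 720.2 to 837 CPM in the early and 535 to 562 CPM in the late libraries. Thus members with opposite roles in the pathway were higher on the same side. SFP1 and IFH1, activators of ribosomal protein genes also named after their values were seen, were at 152 to 189 CPM in the early and 95.9 to 116 CPM in the late libraries and at 373 to 525 CPM in the early and 312 to 327 CPM in the late libraries.

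Pentose phosphate genes, the other list added in this way, held 6 early-higher members of 11 (54.5%) and 1 late-higher (9.09%). Over all genes tested the shares were 15.3% and 14.3%. NQM1, GND2 and SOL4 among them are also counted in the general stress list, so the lists are not separate. TKL2 and GND2, the minor isoenzymes of transketolase and 6-phosphogluconate dehydrogenase, were at 399.9 and 445 CPM in DGY1726, 399 and 528 in DGY1735, 12.02 and 14.01 in DGY1741, and 179 and 139.9 in DGY1743 and at 317 and 361 CPM in DGY1726, 368 and 439.6 in DGY1735, 24.1 and 25.3 in DGY1741, and 153 and 124 in DGY1743. TKL2 overlaps the dubious reading frame YBR116C on the same strand, and reads there count for both. GND1, the major 6-phosphogluconate dehydrogenase, went the other way at 435 to 513 CPM in the early and 604 to 749 CPM in the late libraries. In TKL2 and GND2 DGY1741 lay below DGY1743 (log2 difference -3.61 ± 0.19 (SE) for DGY1741 minus DGY1743, adjusted p = 4.31e-08; log2 difference -2.49 ± 0.15 (SE) for DGY1741 minus DGY1743, adjusted p = 1.45e-07, edgeR).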
